A study of Mus musculus with 16 samples.

Results

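The 89 genes described here encode the nuclear-encoded subunits of the 5 complexes of oxidative phosphorylation, together with some of their assembly factors, in mouse liver. They were chosen by name: every protein-coding row of the deposited table whose symbol began with Nduf followed by a, b, c, s or v, with Uqcr, with Cox followed by 4 to 8, or with Atp5, and the rows Sdha, Sdhb, Sdhc and Sdhd. They were 89 of 15467 protein-coding rows and of 23258 rows in all. By complex they were 44 genes of complex I, of which 8 were assembly factors, 4 of complex II, 8 of complex III, 17 of complex IV and 16 of complex V. Liver RNA of C57BL/6 mice was sequenced in 16 libraries, depleted of ribosomal RNA. Wild-type mice on chow gave 3 libraries and wild-type mice on high-fat diet (HFD) gave 4. Mice with a knockout of the microRNA miR-33 restricted to the liver gave 4 libraries on chow and 5 on HFD. Neither the samples' labels nor the design text name the promoter that drives the liver-specific deletion, the allele, the age, the sex, the length of feeding or a batch, or state that each library came from a separate animal, so p-values measure the spread between these libraries. The name of the deposited table speaks of Alb-Cre, a Cre recombinase driven by the albumin promoter, which is active in hepatocytes. The titles of all chow libraries come from a different run of numbers than those of all HFD libraries. If these numbers stand for a sample series or order, its effect cannot be told apart from that of diet.

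Oxidative phosphorylation is the last stage of fuel burning in mitochondria. Complexes I and II pass electrons from NADH and succinate to ubiquinone, complex III passes them on to cytochrome c, complex IV hands them to oxygen, and complex V uses the resulting proton gradient to make ATP. Complex I has a catalytic core, a larger set of accessory subunits and assembly factors that are needed to build it but are absent from the finished enzyme. In the liver the chain is known for taking up the electrons that the burning of fatty acids releases. The deposited table holds no row of the mitochondrial chromosome, so the subunits that the mitochondrial genome encodes could not be analysed here.

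The deleted microRNA is shown first, because its seed could pair with transcripts directly. In the RefSeq sequence of build GRCm38.p6, miR-33-5p lies at chr15:82198127-82198147 on the plus strand, inside the gene of the sterol regulator Srebf2, and its seed, bases 2 to 8, is in capitals below. The search took the longest annotated 3' UTR among the principal transcripts of each of the 89 genes. Shorter or shifted matches were not sought. The second line is the only match found to that seed, CAATGCA on the transcript's strand, with its flanks in lower case.
miR-33-5p: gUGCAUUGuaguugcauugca
Atp5s, from base 296 of a 3' UTR of 827 bases: ctttaaactgCAATGCAaatattcttc
Atp5s is related to the coupling factors of complex V. One of the 89 genes, or 1.12%, held the 7-base match, against 6.92% of the 12996 genes tested that had an annotated 3' UTR. The UTRs of the 89 were also shorter, with a median of 175 bases against 1023. In CPM, a count relative to its library's total with TMM factors between libraries, Atp5s was at 4.04, 3.96 and 3.67 in wild type on chow and 3.80, 2.71, 3.96 and 3.27 in knockout on chow. On HFD it was at 2.14, 2.82, 3.20 and 3.08 in wild type and 3.18, 3.23, 3.76, 2.79 and 2.87 in knockout. The genotypes overlapped on both diets, and the log2 fold change of knockout against wild type was -0.19 on chow and 0.18 on HFD, with neither passing the test described next. The microRNA itself was not measured in the data used here, so its loss was not checked.

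One edgeR quasi-likelihood model was fitted to all genes and all 16 libraries, and a gene is said to have risen, fallen or passed where its p, adjusted by the Benjamini-Hochberg method over the 16830 genes tested, was under 0.05. Of the 89 genes, 86 were tested. The 3 that did not pass the filter on low counts were Cox4i2, Cox6b2 and Cox8b, isoforms known mainly from other tissues, which never exceeded 8.99, 8 and 4 estimated counts in a library. Library totals ran from 15888436 to 29469645 estimated counts, and the 89 genes together took between 0.680% and 0.944% of them. Knockout replicate 1 on HFD and wild-type replicate 3 on chow stood apart on the leading principal components of all genes, and counts are given without both where they move. Hepatocyte markers were abundant in every library, their sum being 114043 to 119615 CPM in wild type on chow.

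Per length of transcript the complexes differed in level. Complex IV subunits other than Cox7a2l and the restricted isoforms are called common here. Over the 16 libraries they had a median of 176 CPM per kilobase of transcript (11 genes). The median was 129 for complex III subunits (8 genes) and 121 for complex II subunits (4 genes). It was 109 for complex V subunits (15 genes) and 57.2 for complex I subunits (36 genes). The 9 assembly factors had a median of 6.85 CPM per kilobase. The most abundant of these was Ndufaf1 at 11.7 and the least abundant Atp5s at 2.13. The most abundant gene of all per kilobase was Atp5b, the beta subunit of the catalytic head of complex V, at 473, followed by Cox4i1, a subunit of the complex IV core assembly, at 374. In complexes I, II and III the most abundant were Ndufb9 at 170.5, Sdha at 171 and Uqcr10 at 175 CPM per kilobase. The least abundant subunits were Ndufab1 at 5.42, Sdhc at 35.4, Uqcrc2 at 90.5 and, in complex IV, Cox5b at 72.1, while the restricted isoforms Cox7a1 and Ndufa4l2 were at 2.42 and 1.32. In complex V, Atp5g2, one of 3 genes for the proton-carrying ring of complex V, was at 1.24 CPM per kilobase, while its sister gene Atp5g3 was at 293. Atp5g1 to Atp5g3 encode the same mature protein, and reads of such copies and of processed pseudogenes, 6 of which matched the names but were not protein-coding, could have been split between rows.

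**Figure D1:**
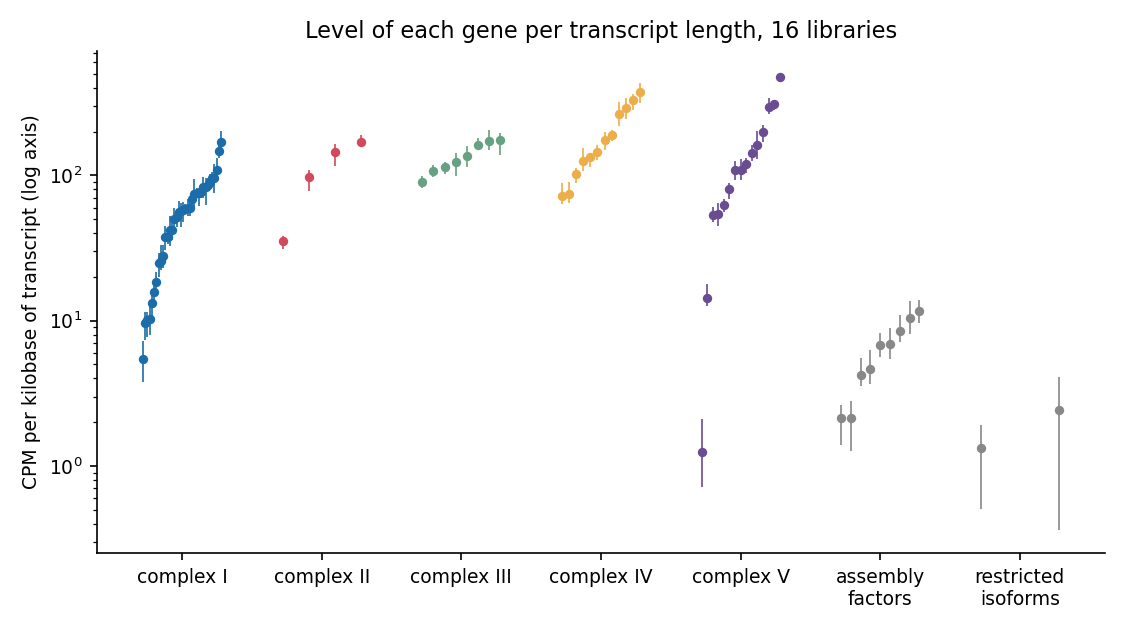
Level of each tested gene in CPM per kilobase of transcript on a log axis, by complex, with the assembly factors and the restricted isoforms Cox7a1 and Ndufa4l2 apart. Points are means of the 16 libraries and bars run from the lowest to the highest library. Complex IV subunits have the highest median, 176, and no assembly factor exceeds 11.7.

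The genes varied little between libraries of the same group. The median SD of log2 CPM within groups was 0.10 over the 86 genes, against 0.17 over 9823 genes in the same range of level and 0.25 over all genes tested. Atp5b had an SD of 0.05, and the low-count genes Cox7a1, Ndufa4l2 and Atp5g2 varied most, with SDs of 0.69, 0.45 and 0.40.

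On HFD the genes as a set lay slightly below the typical liver gene, and some of them fell by 11.4% to 28.96%. Complex I, which holds 44 of the 86 genes tested, had 8 of the 12 falls in wild type and 9 of the 16 in knockout. In wild type 13 of the 86 genes passed, 1 higher and 12 lower on HFD, which is 15.1% beside 29.4% of all genes tested. Over all genes 15.2% rose and 14.2% fell. In knockout 21 of the 86 passed, 5 higher and 16 lower, which is 24.4% beside 33.6% of all genes, of which 17.4% rose and 16.2% fell. The median log2 fold change was -0.09 over the 86 genes and -0.02 over all genes in wild type, and -0.10 and -0.01 in knockout. In wild type 64 of the 86 genes were below 0 and in knockout 62. Over all 16830 genes tested, 8085 and 8294 were above 0. Knockout against wild type, where 0 of the 86 passed, was also uneven. There 66 were below 0 on chow, 56 on HFD and 72 for the mean of both diets. Over all 16830 genes, 8429, 8599 and 8637 were above 0 in these comparisons. The median log2 fold change of the 86 genes was -0.03, -0.02 and -0.03 in the same order. Without both libraries that stood apart it was 0.0003, -0.0010 and -0.0047.

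This direction depends on the scaling, which is why it is stated relative to other genes. The TMM factors were 0.855 to 0.966 in chow libraries and 1.02 to 1.18 in high-fat libraries. With library totals in place of TMM, an alternative chosen after seeing the data, the median of all genes moved to 0.24 in wild type and 0.32 in knockout, and the 86 genes to 0.17 and 0.22. On that scale 17 genes rose and 0 fell in wild type, and 43 rose and 0 fell in knockout. Leaving the ribosomal RNA row CT010467.1, 0.637% to 14.6% of a library, out of those totals gave 22 rises and 1 fall in wild type and 26 rises and 1 fall in knockout. A change of scaling moves all genes together, so the distance of the 86 genes from the median of all genes could hardly move. It was -0.07 in wild type and -0.09 in knockout under TMM, under library totals and under totals without that row. This sameness is no check of the distance. With 1 library left out, the distance ran from -0.11 to -0.04 in wild type and from -0.14 to -0.07 in knockout. Because the direction depends on the scaling, every rise or fall below is on the TMM scale unless another is named. Without knockout replicate 1 on HFD, the knockout comparison held 7 rises and 8 falls in place of 5 and 16. Without both libraries that stood apart, wild type held 4 rises and 6 falls, and knockout 7 and 8.

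**Figure D2:**
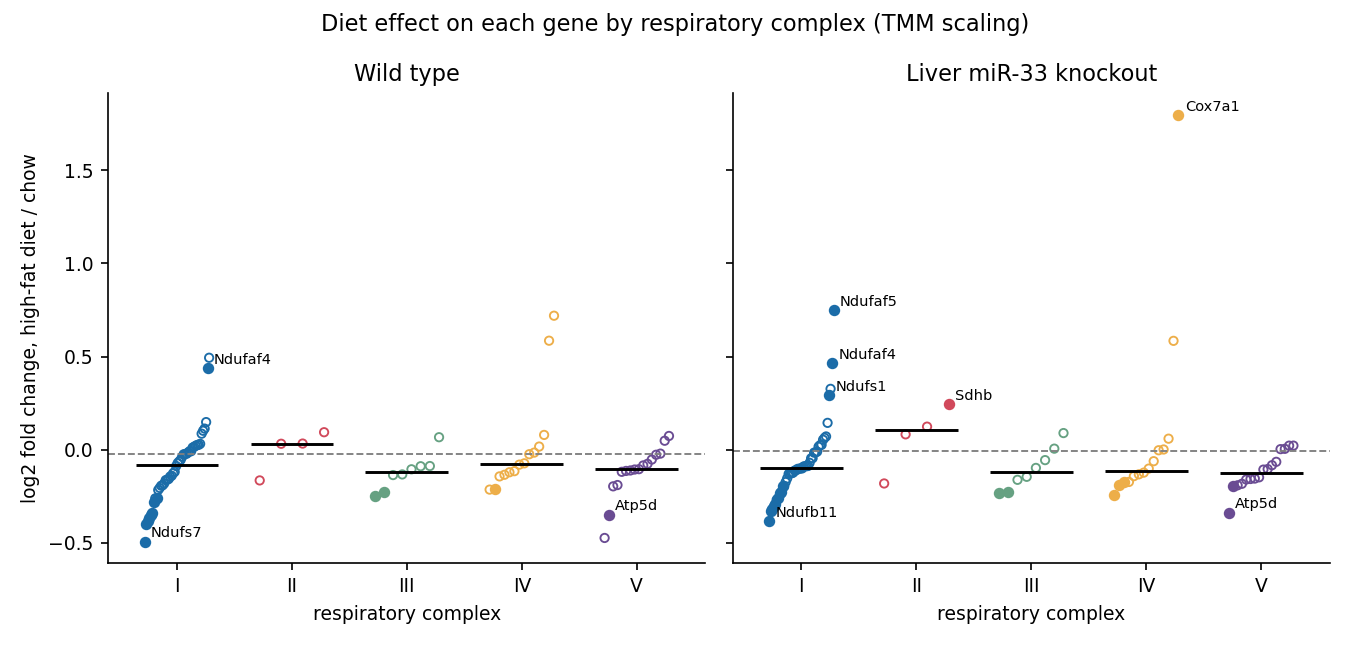
Log2 fold change of HFD against chow for each of the 86 genes, by complex, in wild type and in knockout. Filled points passed the test, black bars are medians of a complex and the dashed line is the median of all genes. On this TMM scale the medians of complexes I, III, IV and V lie between -0.13 and -0.08 and that of complex II lies above 0. With library totals all 5 medians lie above 0. Complexes I, III, IV and V stay below the median of all genes, which a change of scaling moves along with them.

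By complex, complex II stood on the other side of the typical gene from the rest. In wild type the median log2 fold changes were -0.08 in complex I, 0.03 in complex II, -0.12 in complex III, -0.08 in complex IV and -0.11 in complex V. In knockout they were -0.10, 0.10, -0.12, -0.11 and -0.13. With library totals all of these medians were above 0, from 0.14 to 0.29 in wild type and from 0.20 to 0.43 in knockout. Complex II stayed the only one above the median of all genes, a position that a change of scaling hardly alters. The complexes were not tested against each other, and the diets overlapped in the mean level of each complex in both genotypes, except complex V in wild type.

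**Figure D3:**
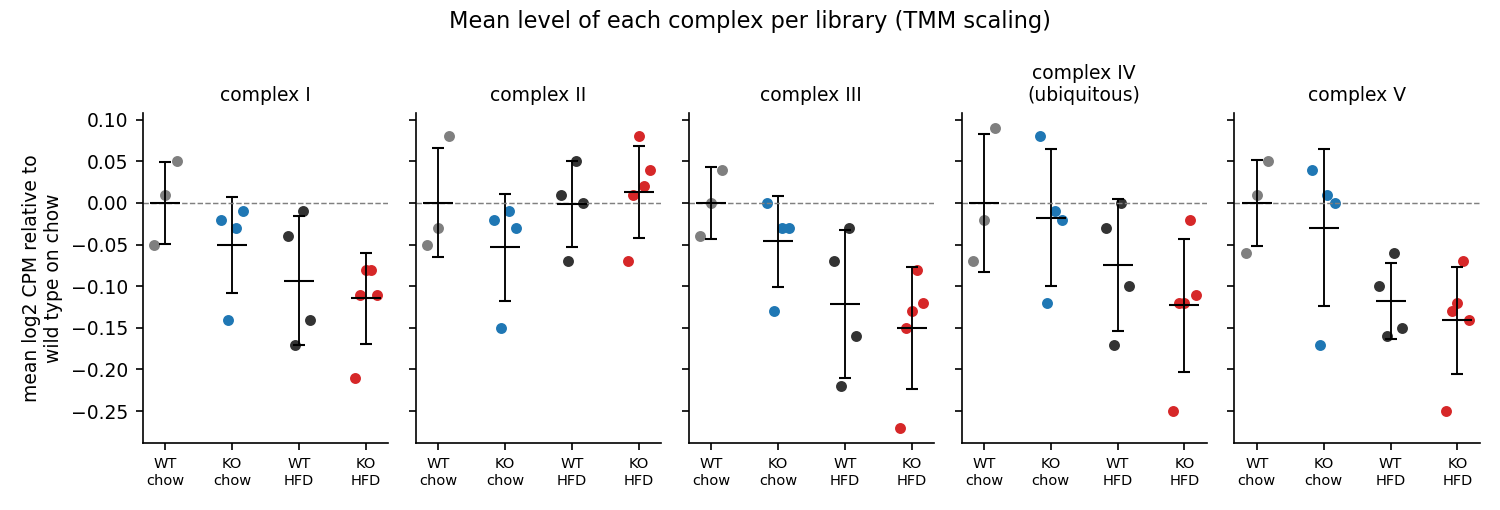
Mean log2 CPM of the tested genes of each complex in each library, relative to the mean of wild type on chow (TMM scale). Each point is 1 library, with the group mean and SD as bars. The complex IV panel holds the 11 common subunits. Knockout replicate 1 on HFD is the lowest point in every panel but that of complex II, where a chow library is lower; with library totals the diet groups shift by the values given in the text.

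Among the 7 nuclear-encoded catalytic core genes of complex I, 1 fell in both genotypes and 1 rose in knockout. Ndufs7 (chr10:80249121-80256794, plus strand) encodes the iron-sulfur subunit next to the ubiquinone site. It was at 40.7, 45.8 and 45.2 CPM in the wild-type chow libraries and at 32.5, 29.96, 33.8 and 28.4 in those on HFD. In knockout it was at 40.7, 37.4, 40.5 and 44.4 CPM on chow and 30.2, 33.1, 32.9, 34.7 and 31.04 on HFD. Every high-fat library lay below every chow library of its genotype. Ndufs7 fell by 28.96% in wild type for a log2 fold change of -0.49 (SE 0.08, adjusted p = 2.90e-04), the largest fall of any of the 86 genes that passed, and by 20.5% in knockout, -0.33 (SE 0.07, adjusted p = 0.00218). With library totals its log2 fold changes were -0.23 and -0.01. Ndufs1 (chr1:63143596-63176833, minus strand), the largest core subunit, which holds iron-sulfur clusters of the electron input arm, went the other way. It was at 68.1, 67.5, 60.9 and 60.4 CPM in knockout on chow and 71.7, 80.6, 86.8, 71.98 and 83.03 on HFD, with no overlap. Ndufs1 rose in knockout by 0.30 (SE 0.08, adjusted p = 0.00939) on the log2 scale. In wild type it was at 66.2, 81.2 and 62.2 and 76.4, 74.5, 74.9 and 74.1 CPM, where 1 chow library was above all high-fat ones, and its log2 fold change was 0.10 (SE 0.09, adjusted p = 0.437). Ndufv1, which binds NADH, was at 117 ± 13.02 (SD, n = 3) and 111 ± 2.10 (SD, n = 4) CPM on chow and HFD in wild type, and at 112 ± 7.07 (SD, n = 4) and 114 ± 7.72 (SD, n = 5) in knockout.

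The Ndufb genes, which encode accessory subunits of the membrane arm of complex I, held 5 of the 12 falls in wild type and 5 of the 16 in knockout. In each genotype 5 of the 10 fell and none rose, beside 14.2% and 16.2% of all genes that fell, and their median log2 fold change was -0.26 in wild type and -0.19 in knockout. With library totals that median was 0.00 in wild type and 0.13 in knockout. Relative to the median of all genes this is -0.24 and -0.19, a distance that a change of scaling hardly alters. Of the 12 Ndufa genes of complex I, 0 fell in wild type and 1, Ndufa7, in knockout. Whether the Ndufb and Ndufa genes differed was not tested. Ndufb11 (chrX:20615326-20617619, minus strand) was at 93.6, 98.8 and 109 CPM on chow and 85.2, 68.4, 78.6 and 75.7 on HFD in wild type, and at 108, 91.5, 95.5 and 103 and 71.9, 79.1, 73.2, 79.96 and 76.9 in knockout. The diets did not overlap in either genotype, and the log2 fold change was -0.38 (SE 0.08, adjusted p = 0.00232) in wild type and -0.38 (SE 0.07, adjusted p = 7.05e-04) in knockout. Ndufb5 (chr3:32736990-32751566, plus strand) was at 45.8, 45.8 and 48.5 CPM on chow and 36.7, 33.2, 37.7 and 37.2 on HFD in wild type. It was at 44.5, 44.04, 43.7 and 47.4 and 35.2, 37.7, 35.8, 37.3 and 37.6 CPM in knockout. Its libraries were tightly grouped and the diets apart, and it fell by 22.5% and 18.3%, adjusted p = 5.89e-04 and 0.00117. Ndufb7 and Ndufb9 also fell in both genotypes, with log2 fold changes of -0.35 and -0.32 for Ndufb7 and -0.28 and -0.26 for Ndufb9. The wild-type call of Ndufb7 was lost without chow replicate 3. Ndufb10 passed in wild type (-0.26) and Ndufb2 in knockout (-0.30). The other accessory genes that passed were Ndufv3, which sits at the NADH end and fell in both (-0.34 and -0.20), and Ndufa7 and Ndufs6, which fell in knockout (-0.23 and -0.23). In knockout the calls of Ndufv3, Ndufa7 and Ndufs6 were kept by 11, 15 and 15 of the 24 alternatives with composition scaling. All 3 were lost without knockout chow replicate 1, 3 or 4 or knockout HFD replicate 1 or 5. Ndufs6 was also lost without knockout HFD replicate 4, and Ndufv3 without knockout chow replicate 2, knockout HFD replicate 2 or 3 or wild-type HFD replicate 3 or 4. Ndufa7 was at -0.14 (adjusted p = 0.123) without knockout HFD replicate 1. No accessory gene of complex I rose.

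The assembly factors of complex I moved in both directions. Ndufaf4 (chr4:24898083-24905001, plus strand) rose in both genotypes. It was at 21.4, 20.4 and 20.6 CPM on chow and 28.9, 25.999, 32.5 and 25.3 on HFD in wild type. In knockout it was at 20.1, 19.8, 21.9 and 19.99 and 31.1, 27.9, 25.8, 25.8 and 30.6 CPM. All high-fat libraries were above all chow libraries, and the rise was 0.44 (SE 0.10, adjusted p = 0.00297) on the log2 scale in wild type and 0.46 (SE 0.09, adjusted p = 5.28e-04) in knockout. With library totals these rises were 0.69 and 0.79. Ndufaf5 (chr2:140170649-140203689, plus strand), known for modifying the core subunit Ndufs7, was at 1.47, 1.77, 2.19 and 1.77 CPM on chow and 3.04, 3.20, 3.25, 2.86 and 2.71 on HFD in knockout. The diets did not overlap, and it rose by 68.3%, a log2 fold change of 0.75 (SE 0.17, adjusted p = 0.00204). In wild type it was at 1.79, 1.80 and 2.60 and 3.09, 2.75, 2.74 and 3.03 CPM, also without overlap, but did not pass, with 0.49 (SE 0.19, adjusted p = 0.0566). Ndufaf8 fell in wild type, -0.40 (SE 0.12, adjusted p = 0.0213), a call lost without wild-type replicate 2 on chow or replicate 2 on HFD, and was at -0.15 in knockout without passing. The other 5 factors, Ndufaf1, Ndufaf2, Ndufaf3, Ndufaf6 and Ndufaf7, passed in neither genotype.

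Complex II, succinate dehydrogenase, held 1 call. Sdhb (chr4:140961203-140979193, plus strand), its iron-sulfur subunit, was at 95.9, 88.7, 115 and 101 CPM in knockout on chow and 124, 117, 124, 112 and 115 on HFD, where 1 chow library overlapped. It rose by 0.24 (SE 0.08, adjusted p = 0.0213) on the log2 scale, and 22 of 24 alternatives with composition scaling kept the call, which was lost without knockout chow replicate 1 or 2. Wild type was at 103, 101 and 116 and 119, 103, 121 and 112 CPM, and did not pass (0.09). Sdha, the flavoprotein that oxidises succinate, was at 485 ± 16.5 (SD, n = 3) and 496 ± 17.9 (SD, n = 4) CPM on chow and HFD in wild type and at 482 ± 13.3 (SD, n = 4) and 510.2 ± 25.1 (SD, n = 5) in knockout. Sdhd, a membrane anchor, was below 0 in both genotypes, at -0.17 and -0.18, and did not pass.

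In complex III 2 small subunits fell in both genotypes and the catalytic subunits did not pass. Uqcrh (chr4:116066965-116075071, minus strand), the hinge protein near the cytochrome c site, was at 74.2, 84.6 and 85.3 CPM on chow and 73.7, 62.6, 75.5 and 66.6 on HFD in wild type, with overlap, and its log2 fold change was -0.22 (SE 0.08, adjusted p = 0.0425). In knockout it was at 80.1, 75.98, 86.4 and 78.4 and 65.2, 68.5, 65.7, 72.8 and 68.9 CPM, without overlap, and -0.23 (SE 0.07, adjusted p = 0.0163). Uqcr11 fell by 0.25 and 0.23 on the log2 scale. The wild-type calls of Uqcrh and Uqcr11 were kept by 11 and 18 of the 24 alternatives with composition scaling, and both were lost without wild-type replicate 3 on chow or replicate 2 or 4 on HFD. Uqcrh there was also lost without wild-type chow replicate 2, knockout chow replicate 1 or knockout HFD replicate 1, 2 or 5. In knockout Uqcrh was lost without chow replicate 3, and Uqcr11 without chow replicate 1 or 4 or HFD replicate 1. Uqcrfs1, the Rieske iron-sulfur protein, was at 236 ± 11.5 (SD, n = 3) and 215 ± 9.71 (SD, n = 4) CPM in wild type and at 225 ± 7.97 (SD, n = 4) and 216 ± 8.22 (SD, n = 5) in knockout. Uqcrc1, a large subunit on the matrix side, was at 184 ± 9.96 (SD, n = 3) and 173 ± 8.25 (SD, n = 4) CPM in wild type and at 176 ± 13.4 (SD, n = 4) and 177 ± 5.01 (SD, n = 5) in knockout.

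In complex IV the common subunits shifted little, and a low-level isoform of muscle and heart, Cox7a1, had the largest change in knockout. Of the 11 common subunits 0 passed in wild type, and Cox8a, Cox6a1 and Ndufa4 fell in knockout, by 0.25, 0.19 and 0.17 on the log2 scale. Cox8a (chr19:7215158-7217616, minus strand), the smallest subunit, was at 164, 142, 157 and 164 CPM on chow and 119, 129.7, 129, 148 and 135 on HFD in knockout, with overlap of 1 library, and its call was lost without knockout replicate 1 on HFD. The calls of Cox6a1 and Ndufa4 were kept by 14 and 15 of the 24 alternatives with composition scaling, and both were lost without knockout chow replicate 1 or knockout HFD replicate 1, 3 or 5. Cox6a1 was also lost without knockout chow replicate 3 or HFD replicate 2, and Ndufa4 without knockout chow replicate 2 or 4. Cox4i1 was at 301 ± 19.9 (SD, n = 3) and 273 ± 15.9 (SD, n = 4) CPM on chow and HFD in wild type and at 299.8 ± 20.2 (SD, n = 4) and 266 ± 17.6 (SD, n = 5) in knockout. Cox5a, another subunit of the early assembly, was at 87.1 ± 6.11 (SD, n = 3) and 88.1 ± 3.17 (SD, n = 4) CPM in wild type. Cox7a2l is known for joining complexes III and IV into supercomplexes, but whether its product does so in this strain was not examined. Its RNA fell in wild type, -0.21 (SE 0.08, adjusted p = 0.0403), a call that 14 of 24 alternatives with composition scaling kept. It was lost without wild-type HFD replicate 1, 2 or 4, knockout HFD replicate 1 or wild-type chow replicate 3, the last giving -0.14 (adjusted p = 0.224).

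Cox7a1 (chr7:30184144-30186078, plus strand) was at 0.434, 0.344, 0.142 and 0.397 CPM in knockout on chow and 1.36, 0.680, 0.971, 1.57 and 1.42 on HFD. All 5 high-fat libraries were above all 4 chow libraries, and it rose by 1.80 (SE 0.45, adjusted p = 0.00502) on the log2 scale. In wild type it was at 0.705, 0.175 and 1.60 CPM on chow, a spread that covered the high-fat values of 1.45, 1.46, 0.968 and 1.54, and it did not pass, with 0.72 (SE 0.46, adjusted p = 0.254). The wild-type result rests on chow replicate 3, at 1.60 CPM: without it Cox7a1 passed in wild type too, at 1.56 (adjusted p = 0.0277). The difference between the genotypes' diet effects was 1.08 (SE 0.64, adjusted p = 0.825). These levels amount to few reads per library, and Cox7a2, the isoform of liver, was at 99.9 ± 4.64 (SD, n = 4) CPM in knockout on chow. The ratio of Cox7a1 to Cox7a2 compares both genes within each library. Its mean log2 value was -7.18 in wild type and -7.98 in knockout on chow, and -6.05 and -6.19 on HFD. The diet difference within genotype was 1.46, p = 0.000907 in an exact two-sided permutation test over 4410 arrangements and 0.00726 after adjustment over the 8 ratio tests. Ndufa4l2 against Ndufa4, the other such pair with both genes tested, differed by 0.77, p = 0.00816 in the same exact permutation test and 0.0327 after adjustment. With 1 library left out the adjusted p ran over 0.00141 to 0.0296 for the first ratio and 0.00141 to 0.108 for the second by the exact permutation test, the second being lost without wild-type chow replicate 1 or 2, knockout chow replicate 3 or wild-type HFD replicate 2, 3 or 4. Ndufa4l2, an isoform known from hypoxia, was at 0.470, 0.640 and 1.77 CPM in wild type and 1.19, 1.03, 0.708 and 0.927 in knockout on chow. On HFD it was at 0.955, 1.74, 1.60 and 1.38 and 1.68, 1.56, 1.27, 1.39 and 1.42 CPM. Its log2 fold changes of 0.59 and 0.58 did not pass by themselves, but without wild-type chow replicate 3, its highest library, it passed in wild type at 1.36 (adjusted p = 0.00772). The ratios of Atp5g1 to Atp5g2 and to Atp5g3 differed by 0.11 and 0.12 between diets and did not pass, with adjusted p = 0.835 and 0.216 by the exact permutation test, though the second passed without wild-type chow replicate 3, at 0.19 (adjusted p = 0.00141).

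Markers of skeletal muscle, where Cox7a1 is abundant, were low. Of 12 muscle markers 10 were in the table, and their sum was 0.233 to 0.532 CPM in chow-fed wild type, 0.337 to 0.834 in HFD-fed wild type and 0.314 to 0.637 in HFD-fed knockout. In knockout on chow the sum ran from 0.212 to 9.77 CPM, the highest being replicate 2, where Cox7a1 was at 0.344 CPM. Adipocyte markers were higher on HFD: 3 of 6 were in the table, with a sum of 3.82 to 10.2 CPM in knockout on chow and 15.1 to 20.9 on HFD. Of 5 brown adipocyte markers 3 were in the table, with sums of 208 to 290.2 CPM in knockout on chow and 36.9 to 70.5 on HFD. Of these 3, all tested, 1 fell and 0 rose in knockout, with a median log2 fold change of 0.12. The lower sum on HFD is therefore not a shared fall of the 3 markers. The part of fat cells in the Cox7a1 values was not tested.

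In complex V 1 subunit of the catalytic head fell in both genotypes. Atp5d (chr10:80138632-80145818, plus strand), the delta subunit of the central stalk, was at 208, 213 and 236 CPM on chow and 175, 161, 184 and 168 on HFD in wild type. In knockout it was at 223, 194, 218 and 211 and 151, 173, 164, 179 and 169.7 CPM. The diets did not overlap in either genotype, and the log2 fold change was -0.35 (SE 0.08, adjusted p = 0.00287) in wild type and -0.34 (SE 0.07, adjusted p = 0.00116) in knockout. With library totals it was -0.09 and -0.01. Atp5j, a coupling factor of the outer stalk, fell in knockout, -0.20 (SE 0.07, adjusted p = 0.0404), a call that 13 of 24 alternatives with composition scaling kept. It was lost without knockout chow replicate 1 or 4, knockout HFD replicate 1, 3, 4 or 5, or wild-type HFD replicate 3 or 4. The major catalytic subunits did not pass: Atp5b was at 918 ± 37.03 (SD, n = 3) and 905 ± 19.6 (SD, n = 4) CPM on chow and HFD in wild type and at 903 ± 29.3 (SD, n = 4) and 905 ± 40.5 (SD, n = 5) in knockout. Atp5a1, the alpha subunit of the same head, was at 795 ± 24.9 (SD, n = 3) and 779.8 ± 22.1 (SD, n = 4) CPM in wild type. The Atp5o row spans 2 annotated gene models of that name and its values are uncertain.

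**Figure D4:**
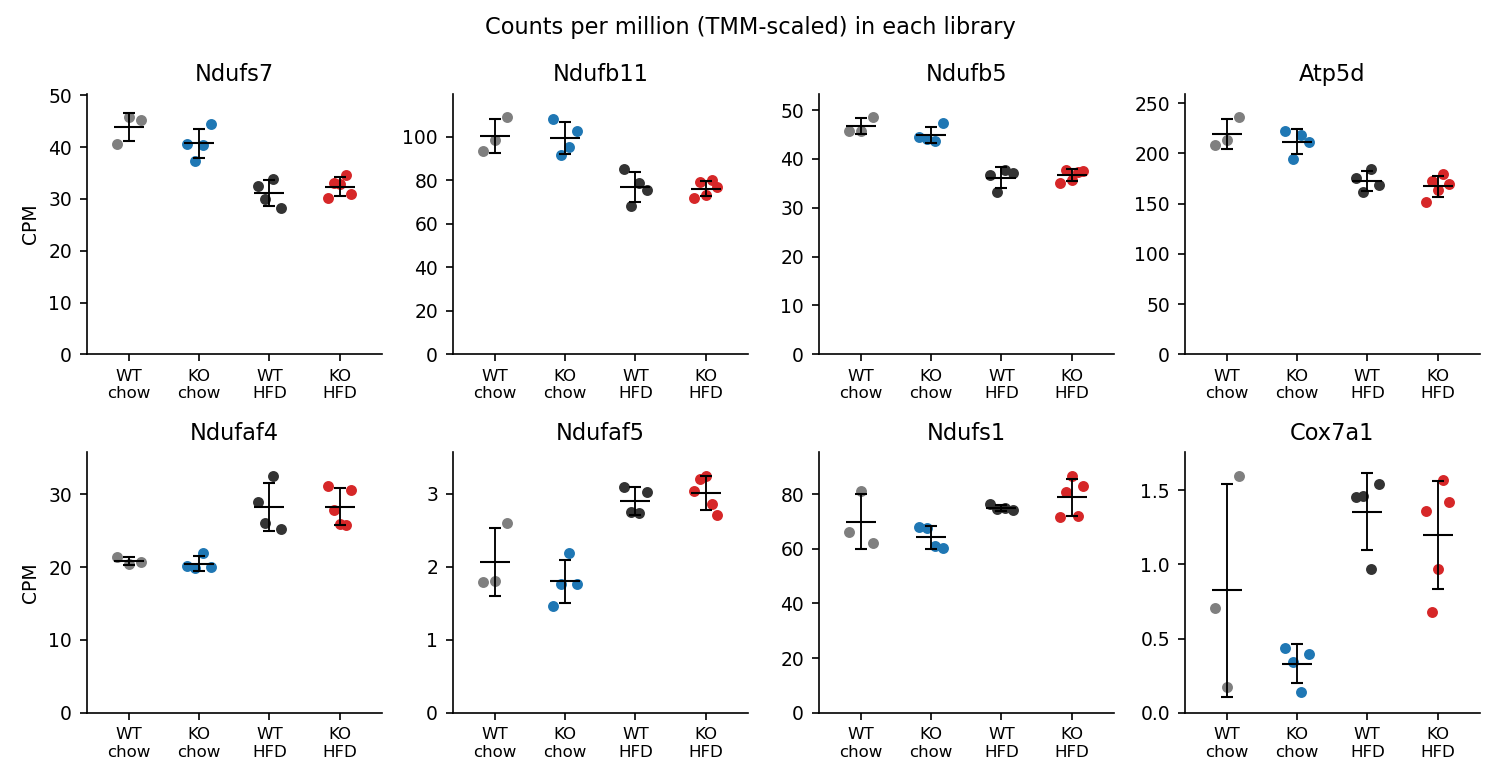
CPM (TMM-scaled) of 8 genes in each of the 16 libraries, by group, with group means and SDs as bars and axes starting at 0. Ndufs7, Ndufb11, Ndufb5 and Atp5d are lower and Ndufaf4 is higher in every high-fat library than in every chow library of the same genotype. Ndufaf5, Ndufs1 and Cox7a1 show the same separation upward in knockout. With library totals in place of TMM, the 4 falls lose their call.

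The diet effects of the genotypes, which share no library, were set side by side. Of the 13 genes that passed in wild type and the 21 in knockout, 10 were the same, 76.9% and 47.6% of each list, and all 10 had the same sign. Over all genes tested 3615 passed in both, which is 73.1% of the wild-type list and 63.98% of the knockout list. Over the 86 genes the log2 fold changes had a Pearson correlation of 0.82 and a Spearman correlation of 0.75, against 0.82 and 0.76 over all genes tested. These correlations are across genes of comparisons that share a fit and a diet, and genes are not independent replicates.

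Falls that held up under processing were few. The call of Atp5d, Ndufb11, Ndufb5, Ndufb9, Ndufs7 and Ndufv3 in wild type, and of Atp5d, Ndufb11, Ndufb2, Ndufb5, Ndufb7, Ndufb9 and Ndufs7 in knockout, was made in all 24 alternatives with composition scaling, 16 of which leave out 1 library. The rises of Ndufaf4 in wild type and of Cox7a1, Ndufaf4, Ndufaf5 and Ndufs1 in knockout were called there and also with library totals, with and without the ribosomal RNA row. Both kinds of totals moved all genes upward on HFD, so rises gained and falls shrank by the scaling itself. Calls with totals are therefore no evidence that the rises are firmer than the falls. Of the falls, only that of Ndufs7 in wild type (-0.27, adjusted p = 0.0165) and that of Ndufb11 in knockout (-0.18, adjusted p = 0.0451) passed with library totals without that row.

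Markers of liver cell types moved with the diet. Of 15 hepatocyte markers tested, 10 fell and 0 rose in wild type and 9 fell and 0 rose in knockout, with median log2 fold changes of -0.67 and -0.62, both further from 0 than the 86 genes. Their sum ran from 114043 to 119615 CPM in chow-fed wild type and 113439.6 to 125223 in knockout on chow, and from 79968 to 97213 and 79859.6 to 99575 on HFD. Hnf4a, a hepatocyte transcription factor, fell by 0.88 (adjusted p = 1.19e-05) and 0.98 (adjusted p = 8.06e-07) on the log2 scale. Of 16 macrophage markers 12 rose and 0 fell in wild type and 8 rose and 1 fell in knockout, with sums of 227 to 416 CPM on chow and 559 to 995 on HFD in wild type, and 383 to 437 and 521 to 947 in knockout. Of 15 stellate cell markers 13 rose in wild type and 11 in knockout, and 0 fell, with sums of 264 to 398 CPM on chow and 526 to 649.9 on HFD in knockout, and 261 to 314 and 524 to 872 in wild type. Of 15 sinusoidal endothelial markers 8 rose and 0 fell in wild type, and 0 rose and 4 fell in knockout. Of the cholangiocyte, T and NK cell, B and plasma cell, neutrophil and erythroid markers tested, 3 of 8, 2 of 12, 0 of 9, 3 of 3 and 5 of 6 rose in wild type and 2, 0, 2, 1 and 0 in knockout, and 0 fell. No marker in the table was at 0 in all 16 libraries, and single groups were not checked for this. The part of these shifts in the values of the respiratory genes was not tested, and in bulk liver fewer cells of a type and less RNA per cell cannot be told apart.

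Other genes of the pathway were read from lists written for this work. Over all genes tested 15.2% rose and 14.2% fell in wild type, and 17.4% rose and 16.2% fell in knockout. Of 37 assembly factors whose names fall outside the rule, 2 rose and 6 fell in wild type and 3 rose and 4 fell in knockout. Sco2, which delivers copper to complex IV, fell from 81.5 ± 7.75 CPM (SD, n = 3) to 40.4 ± 5.58 CPM (SD, n = 4) in wild type for a log2 fold change of -1.01 (adjusted p = 4.79e-05), and by 1.00 (adjusted p = 1.20e-05) in knockout. Sdhaf1, an assembly factor of complex II, rose by 0.59 (adjusted p = 0.00315) in wild type and 0.78 (adjusted p = 8.02e-05) in knockout on the log2 scale. Of 13 electron carriers and related subunits 3 rose and 2 fell in wild type, and 5 rose and 2 fell in knockout. The 2 that fell encode steps that bring electrons of fatty acid oxidation to ubiquinone. Falls of 2 in 13 are near the share of all genes that fell in either genotype. Etfdh fell from 379.8 ± 30.1 CPM (SD, n = 3) to 202 ± 5.80 CPM (SD, n = 4) in wild type, -0.91 (adjusted p = 2.25e-06), and Etfb by 0.65 (adjusted p = 1.84e-05). In knockout their log2 fold changes were -0.99 (adjusted p = 1.92e-07) and -0.66 (adjusted p = 3.47e-06). Cyc1, a cytochrome of complex III with another name, did not pass, at -0.10 (adjusted p = 0.297) and -0.12 (adjusted p = 0.139).

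Of 19 regulators of mitochondrial biogenesis 0 rose and 5 fell in wild type, and 3 rose and 5 fell in knockout. Beside them, 14.2% of all genes tested fell in wild type and 16.2% in knockout, and 15.2% and 17.4% rose. Ppargc1a, a coactivator of respiratory genes, was at 14.4 and 14.1 CPM in wild type and its log2 fold change was -0.02 (adjusted p = 0.945). Its relative Ppargc1b fell by 0.75 (adjusted p = 0.0108) in wild type and 0.60 (adjusted p = 0.0145) in knockout on the log2 scale. Sirt3, a mitochondrial deacetylase, fell by 0.39 (adjusted p = 0.00425) and 0.27 (adjusted p = 0.0157). Tfam, which packages and transcribes mitochondrial DNA, fell by 0.39 (adjusted p = 7.14e-04) and 0.29 (adjusted p = 0.00197). Nrf1, a transcription factor of respiratory genes, did not pass, at -0.05 (adjusted p = 0.878) and -0.38 (adjusted p = 0.0967). Of 13 citric acid cycle genes 3 rose and 3 fell in wild type, and 4 rose and 2 fell in knockout. Cs, citrate synthase, rose from 105 ± 2.32 CPM (SD, n = 3) to 136 ± 2.58 CPM (SD, n = 4) in wild type, 0.38 (adjusted p = 0.00243), and Dlst, of the oxoglutarate dehydrogenase complex, fell by 0.41 (adjusted p = 0.00273) on the log2 scale.

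RefSeq promoters of build GRCm38.p6, from 250 bases before to 50 after the RefSeq start site, were matched for 75 of the 89 genes and searched on both strands for 5 motifs. The letters of the NRF1 motif, GCGCATGCGC, were in 7 of the 75 (9.33%) and in 2.23% of 10346 promoters of genes tested. The YY1 letters AAGATGGCG were in 8 (10.7%) and in 3.39% of all, the ERRA letters TCAAGGTCA in 2 (2.67%) and 0.338%, the GABPA letters CCGGAAGTG in 2 (2.67%) and 4.63%, and TATAAA in 6 (8%) and 9.40%. Windows are shown for 4 genes whose NRF1 match lies with its flanks before the RefSeq start site, with the match in capitals, on the strand of the gene, because this motif is named for a known regulator of respiratory genes. Those of Ndufaf4, Cox6a1 and Ndufa11 lie outside the span that the deposited table gives the gene, and that of Atp5k overlaps the 5' end of that span.
Ndufaf4, 113 bases before the start site, chr4:24897960-24897989: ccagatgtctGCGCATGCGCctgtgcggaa
Cox6a1, 162 bases before the start site, chr5:115349101-115349130: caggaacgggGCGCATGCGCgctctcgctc
Atp5k, 50 bases before the start site, chr5:108434430-108434459: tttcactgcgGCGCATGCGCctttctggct
Ndufa11, 60 bases before the start site, chr17:56717692-56717721: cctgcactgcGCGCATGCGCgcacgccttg
The other NRF1 matches were in Ndufaf5, Uqcrc1 and Atp5g2. The windows found in Atp5g2, Atp5j and Ndufs7 lie wholly inside the spans that the deposited table gives these genes and are not shown. The RefSeq start sites of Cox6a1 and Atp5k, whose windows are shown, also lie inside those spans. Among the 7 genes with an NRF1 match Ndufaf4 rose in both genotypes, Ndufaf5 rose and Cox6a1 fell in knockout, and the other 4 did not pass. The YY1 matches were in Atp5j, Atp5j2, Ndufa9, Ndufaf8, Ndufc1, Ndufs4, Ndufs6 and Ndufs7. Of these Ndufs7 fell in both genotypes, Ndufaf8 fell in wild type, Atp5j and Ndufs6 fell in knockout, and the other 4 did not pass. Of the 86 genes 1 rose and 12 fell in wild type, and 5 rose and 16 fell in knockout. Over all genes tested 14.2% and 16.2% fell, and 15.2% and 17.4% rose. The calls of Ndufaf8, Atp5j, Ndufs6 and Cox6a1 were kept by 20, 13, 15 and 14 of the 24 alternatives with composition scaling. Whether a match goes with a diet change was not tested. A match is a run of letters and does not show binding.

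Loss of miR-33 left no call among the respiratory genes on either diet. On HFD 0 of the 86 genes passed, beside 0.00594% of all genes, and at an unadjusted p under 0.05 the edgeR test held 1 of the 86 and 641 of 16830. On chow 0 passed, beside 0.00594%, and 4 and 1001 were under 0.05 unadjusted. For the mean of both diets 0 passed, beside 0.0178%, with 3 and 586 unadjusted. For the difference of the knockout effect between diets 0 passed, beside 0% of all genes, with 1 and 1110 unadjusted. DESeq2 and limma voom also called 0 of these genes in each of the 4 comparisons. The median log2 fold change over the 86 genes was -0.02 on HFD, -0.03 on chow, -0.03 for the mean and 0.01 for the difference. In the same order, 56, 66, 72 and 39 of the 86 were below 0, while 8599, 8429, 8637 and 8540 of all 16830 genes were above 0. Without both libraries that stood apart the medians were -0.0010 on HFD, 0.0003 on chow and -0.0047 for the mean.

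The precision bounds how large a knockout effect could have been missed. On HFD the 95% interval of the fold change lay within 1.5-fold either way for 83 of the 86 genes (96.5%), and on chow for 81 (94.2%). For the mean of both diets 85 genes (98.8%) were so bounded. Over all genes tested the shares were 59.6%, 50.4% and 70.3%. In complex I the log2 fold changes on chow ran from -0.28 to 0.17, and those of the 7 core genes from -0.12 to -0.02 on chow and from 0.00 to 0.07 on HFD. Atp5b, the most abundant gene per kilobase, was at 905 ± 19.6 (SD, n = 4) CPM in wild type and 905 ± 40.5 (SD, n = 5) in knockout on HFD. The smallest unadjusted p on HFD belonged to Ndufb2, Ndufs6 and Ndufa8, with log2 fold changes of -0.19, -0.16 and -0.14. Ndufb2 was at 25.1, 21.8, 23.5 and 23.6 CPM in wild type and 17.8, 22.9, 19.4, 22.3 and 20.3 in knockout, with overlap. On chow they belonged to Ndufb10, Cox7a1 and Ndufc2, with -0.18, -1.26 and -0.15. Ndufb10 was at 90.8, 89.5 and 96.03 CPM in wild type and 85.1, 76.9, 78.98 and 84.8 in knockout on chow, without overlap but with an adjusted p of 0.773. For the mean of both diets they belonged to Ndufc2, Ndufb10 and Cox7a1, at -0.12, -0.11 and -0.72, and for the difference between diets to Ndufb2, Ndufa13 and Cox7a1, at -0.30, -0.19 and 1.08. For Cox7a1 on chow the 95% interval ran from -2.36 to -0.15 (adjusted p = 0.812), a wide range for this low-count gene. The ratio of Cox7a1 to Cox7a2 differed by -0.47 between genotypes within diet, adjusted p = 0.518 by the exact permutation test, and that of Ndufa4l2 to Ndufa4 by 0.16, adjusted p = 0.81.

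**Figure D5:**
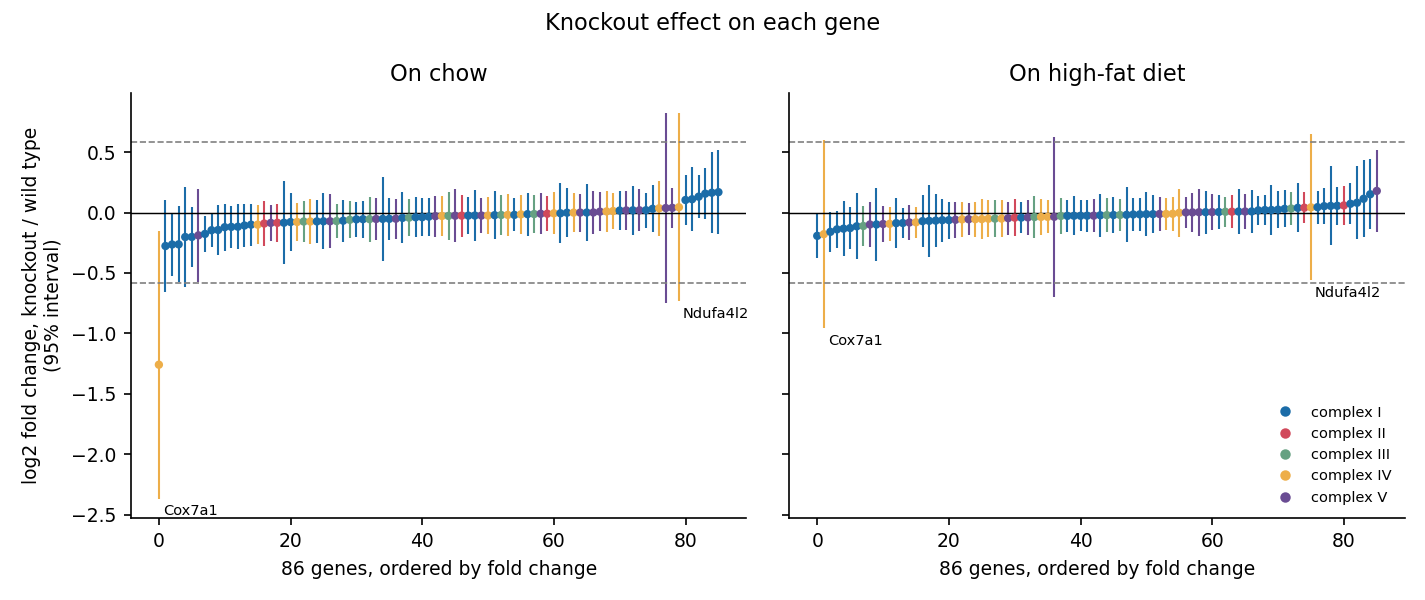
Log2 fold change of knockout against wild type for each of the 86 genes with its 95% interval, on chow and on HFD, ordered by fold change and coloured by complex. Dashed lines mark 1.5-fold either way. Intervals of 81 genes on chow and 83 on HFD lie within them, and those of Cox7a1 reach beyond them on both diets.

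Related genes outside the rule showed the same absence of calls. None of the 37 assembly factors, 13 carriers, 19 regulators and 13 citric acid cycle genes passed in any of the 4 knockout comparisons by edgeR. Their median log2 fold changes on HFD were 0.02, -0.03, 0.03 and -0.01, and on chow -0.07, -0.01, -0.00022 and -0.05.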

How the data were processed

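Gene-level values of 16 liver RNA libraries were analysed. Per the labels' protocols, reads were trimmed for quality, aligned by TopHat2 and passed to Cuffdiff. The submitters' processing notes name mm10, with versions and strand setting not given in the sources used here. What the authors deposited behaves as estimated counts, neither scaled to library size nor to length, although the authors' table is named for FPKM. Values were rounded to whole numbers, filtered with filterByExpr, scaled by TMM and fitted with edgeR 4.0.16 (R 4.3.3) as 1 robust quasi-likelihood model of the 4 groups with 12 residual degrees of freedom. A standard error is the size of the log2 fold change over the root of F. The code was tested on simulated data. Library totals alone, with and without the ribosomal RNA row CT010467.1, were added as alternatives after seeing the data, beside DESeq2 1.42.0, limma 3.58.1 voom, other scalings, filters and leaving out libraries. Log2 ratios of isoforms used a prior count of 2. Transcript lengths are medians over principal transcripts of GENCODE M21. Gene positions are those of the deposited table. The genes, lists and comparisons were chosen with earlier results of these data known. Named genes were drawn from the core subunits, the largest rises and falls that passed in each complex, the smallest p where fewer than 3 passed, the most and least abundant per length, the restricted isoforms and, of each list shown, those with the smallest p; Atp5s, Ndufv3, other members that passed, Sdhd, Cyc1, Nrf1 and the Ppargc1 genes were added after their values were seen.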

Additional observations from a re-analysis of the deposited data

Results flagged for a closer look

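Of 123 groups of 4 or 5 libraries examined, 9 held a library far from the others by Dixon's criterion, where chance flags about 1 in 20. In knockout on high-fat diet, replicate 1 was lowest in Atp5b, at 834 CPM against 913 to 931, and in the mean log2 CPM of complex I, at 4.84 against 4.94 to 4.98. Replicate 4 of that group was highest in Uqcr11, at 74.8 CPM against 68.1 to 69.6. In knockout on chow, replicate 2 was lowest in Sdhc, at 98.3 CPM against 108 to 109, in the mean of complex I, at 4.92 against 5.02 to 5.04, and in that of complex II, at 7.36 against 7.48 to 7.5. Replicate 3 was highest in Ndufaf4, at 21.9 CPM against 19.8 to 20.1. Among wild-type livers of the high-fat diet, replicate 2 was lowest in Cox5a, at 83.4 CPM against 89.2 to 90.3, and replicate 3 in Cox7a1, at 0.968 CPM against 1.45 to 1.54.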

How the results depend on the processing

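No paired analysis was possible because the labels give no replicate numbers shared between groups. The number of respiratory genes called in the 4 knockout comparisons was 0 in every alternative run. These were 16 that each left out 1 library and 10 others on each diet, or 9 others for the mean and the difference, where the fit with only the groups compared was not run. Leaving out 1 library gave 9 to 14 calls for diet in wild type and 14 to 21 in knockout. With library totals the median log2 fold change of the genes was 0.171 for diet in wild type, 0.224 for diet in knockout, -0.104 for knockout on chow and 0.0789 for the difference, and 43 genes were called for diet in knockout. Without the ribosomal RNA row in those totals the diet medians were 0.137 and 0.101, and 23 genes were called in wild type. These shifts follow from the scaling, which moves all genes together.

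With library totals some falls changed sign. In wild type these were Uqcr11 at 0.0069, Uqcrh at 0.035 and Cox7a2l at 0.045, the last 2 at 0.0016 and 0.016 without the ribosomal RNA row. In knockout they were Uqcrh at 0.091, Uqcr11 at 0.099, Cox8a at 0.080, Cox6a1 at 0.136, Atp5j at 0.130, Ndufa4 at 0.153, Ndufa7 at 0.096, Ndufb2 at 0.023, Ndufb5 at 0.035, Ndufb7 at 0.0075, Ndufb9 at 0.065, Ndufs6 at 0.098 and Ndufv3 at 0.127. Without that row Cox6a1 was at 0.013, Atp5j at 0.0056, Ndufa4 at 0.029 and Ndufv3 at 0.00685. None passed.

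Over all genes, the few calls for knockout on high-fat diet (1) became 3 with library totals, 3 with no filter, 4 with only the groups compared, 8 by DESeq2, 2 by voom and 1 to 4 without 1 library. On chow (1) they became 0 with only the groups compared, 2 by DESeq2, 0 by voom and 0 to 3 without 1 library. For the mean (3) they became 5 by DESeq2, 1 by voom and 2 to 5 without 1 library, and for the difference (0) 13 by DESeq2 and 0 to 4 without 1 library. The cause was not tested. Ratios near 0 changed sign when 1 library was left out: Atp5g1 to Atp5g2 ran from -0.043 to 0.255 for diet and -0.143 to 0.155 for genotype, Atp5g1 to Atp5g3 from -0.080 to 0.046 and Ndufa4l2 to Ndufa4 from -0.0071 to 0.411 for genotype. Depth limits the isoforms near 1 CPM.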
